A study of Mus musculus with 9 samples.

Results

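Cytokine receptors were followed in tumor-infiltrating CD8+ T cells of different T cell receptor avidity. The genes were chosen by name and matched by Ensembl identifier, and they were 10 of the 32976 genes in the tables: the IL-2 receptor chains Il2ra, Il2rb and Il2rg, the IL-4 receptor chain Il4ra, the IL-12 receptor chains Il12rb1 and Il12rb2, the IL-21 receptor Il21r, the interferon gamma (IFNγ) receptor chains Ifngr1 and Ifngr2, and Il12b, which encodes a subunit of the cytokine IL-12. Wild-type BALB/c mice carried subcutaneous tumors of CT26.WT, a chemically induced mouse colorectal carcinoma line, and every group had received anti-PD-1 (clone RMP1-14) 3, 6 and 9 days after implantation. CD8+ CD44+ T cells were sorted with a tetramer of GSW11, a peptide of the viral glycoprotein gp70 that this tumor expresses. High tetramer binding in progressing tumors gave TetHighProg (replicates 1, 2 and 5), low binding in regressing tumors gave TetLowReg (replicates 6, 7 and 8), and low binding in progressing tumors gave TetLowProg (replicates 9, 10 and 12). Each group had 3 libraries, named below by group and replicate number (TetLowReg 7). The study names 3 regressing and 3 progressing tumors, so TetHighProg and TetLowProg libraries may come from the same animals, and the labels give no pairs. No untreated mice were among these libraries. The age of the mice is not given in the sources used here, and CT26.WT is a single transplanted line.

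Cytokine receptors of this kind have no enzyme activity of their own. Their signaling chains hold Janus kinases (JAK), and binding of the cytokine brings these chains together so that the kinases phosphorylate STAT transcription factors. Il2rg encodes the common gamma chain, which the receptors for IL-2, IL-4, IL-7, IL-9, IL-15 and IL-21 share, so a T cell can respond to one of these cytokines only if it also makes the private chain. IL-2 and IL-21 drive expansion and maintenance of CD8+ T cells, IL-12 from dendritic cells and macrophages supports their effector functions, and IFNγ acts on many cell types through Ifngr1 and Ifngr2.

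The 250 bases before the outermost annotated start of 4 genes are shown, read from GRCm39 in the direction of transcription. They are Il2rg and Ifngr1, which had reads in every library, Il4ra, whose libraries separated most clearly by group, and Il12b, which was found in a single group. The windows are chrX:100311862-100312111 (minus strand), chr10:19467447-19467696 (plus strand), chr7:125150829-125151078 (plus strand) and chr11:44290558-44290807 (plus strand). Capitals mark a match to CCGGAAG, a core recognized by ETS factors.
Il2rg: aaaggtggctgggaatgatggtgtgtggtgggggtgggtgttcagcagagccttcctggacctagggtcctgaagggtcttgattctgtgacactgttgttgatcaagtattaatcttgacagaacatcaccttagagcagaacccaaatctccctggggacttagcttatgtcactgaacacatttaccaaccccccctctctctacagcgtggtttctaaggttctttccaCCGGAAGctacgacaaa
Ifngr1: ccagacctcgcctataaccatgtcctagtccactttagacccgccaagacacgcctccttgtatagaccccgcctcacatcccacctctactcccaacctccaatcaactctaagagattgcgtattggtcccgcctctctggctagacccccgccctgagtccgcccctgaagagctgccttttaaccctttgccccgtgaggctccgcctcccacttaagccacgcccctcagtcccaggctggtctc
Il4ra: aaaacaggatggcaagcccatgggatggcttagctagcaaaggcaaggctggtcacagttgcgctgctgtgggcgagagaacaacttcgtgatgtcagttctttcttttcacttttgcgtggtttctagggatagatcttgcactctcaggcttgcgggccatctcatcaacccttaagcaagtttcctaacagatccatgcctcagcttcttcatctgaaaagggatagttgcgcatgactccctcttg
Il12b: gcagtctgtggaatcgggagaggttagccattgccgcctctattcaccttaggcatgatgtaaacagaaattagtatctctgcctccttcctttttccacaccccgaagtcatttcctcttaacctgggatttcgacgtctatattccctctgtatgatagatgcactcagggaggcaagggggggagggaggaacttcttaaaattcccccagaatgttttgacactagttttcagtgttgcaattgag
Letters were searched on both strands in the same window of all 10 genes and of 21770 protein-coding genes. CCGGAAG was found in Il2rg alone of the 10, from base -17 to base -11 before the start, and in 5.75% of all windows. TTCNNNGAA, a core bound by STAT factors, matched only Il12rb2 of the 10 (7.82% of all windows). The kappaB motif matched Il2ra, Il2rb and Ifngr2 (6.94%). The TATA box TATAAA matched none of the 10 (12.5% of all windows). The GC content of the windows ran from 42.4% in Il2ra to 64.8% in Ifngr2, with a median of 51.2% over all windows. A match describes letters only, and these data hold no measure of factor binding.

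The libraries differed in how many genes they held. Depth was 16405306 to 36429515 gene counts per library. Genes with at least 10 counts numbered 599 to 1298 in 4 libraries (TetHighProg 1 and 2, TetLowReg 6 and TetLowProg 10) and 3181 to 8071 in the other 5. A level of 0 allowed at most 0.0824 to 0.183 CPM (counts per 1000000 gene counts of the library), taken from 3 counts of a library total, and this covers counting error only because Smart-seq2 amplifies cDNA without molecular identifiers. In these bulk libraries fewer cells with a transcript and less RNA per cell cannot be told apart. As for the labelled cell type, Cd3g had at least 10 counts in all 9 libraries and Trac in 8. Cd8b1 had at least 10 counts in 8 and Cd8a in 6, and 1 of these 2 CD8 chains was found in every library. Cd44, one of the sort markers, had at least 10 counts in only 4 libraries.

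More of the 10 genes were found in 5 of the 6 low avidity libraries than in any high avidity one. In each of the 3 TetHighProg libraries only Il2rg and Ifngr1 reached 10 counts. TetLowReg 6, 7 and 8 held 1, 8 and 5 of the 10, and TetLowProg 9, 10 and 12 held 7, 4 and 7. This made a mean of 2.0 ± 0.0 (SD, n = 3) per TetHighProg library, 4.67 ± 3.51 per TetLowReg library and 6.00 ± 1.73 per TetLowProg library. Each TetLowProg library thus held more of the 10 than any TetHighProg library, while TetLowReg 6 held fewer. The difference was 4.00 genes for TetLowProg against TetHighProg (p = 0.1 by a two-sided exact permutation test, which can give no smaller value for 3 libraries against 3), 2.67 for TetLowReg against TetHighProg (exact p = 0.4) and 1.33 for TetLowProg against TetLowReg (exact p = 0.7). With both low avidity groups together it was 3.33 (exact p = 0.0833). Without TetLowReg 6 that difference was 4.20 (exact p = 0.0357), and the one between TetLowProg and TetLowReg turned to -0.50. This setting takes a library with few genes (766) from the low avidity side alone. TetHighProg 1 and 2, with 1298 and 599 genes, stay in, so the lower p is no support for a difference by avidity. The difference between TetLowReg and TetHighProg was 4.50 without TetLowReg 6 and 1.0 without TetLowReg 7. The number of all genes found moved with it. TetHighProg 5 had 3181 genes and 2 of the 10, TetLowProg 10 had 1148 genes and 4 of the 10, and the 4 libraries with the most genes held 5 to 8. The part of overall detection in this difference was not tested. Thinning every library to the smallest total of 16405306 counts left the number of the 10 at the same value in each library. It could hardly do otherwise, as any of the 10 found in a library above that total had at least 53 counts. After thinning, the number of all genes at 10 counts still ran from 580 to 7859, so this setting evened out depth only.

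**Figure D1:**
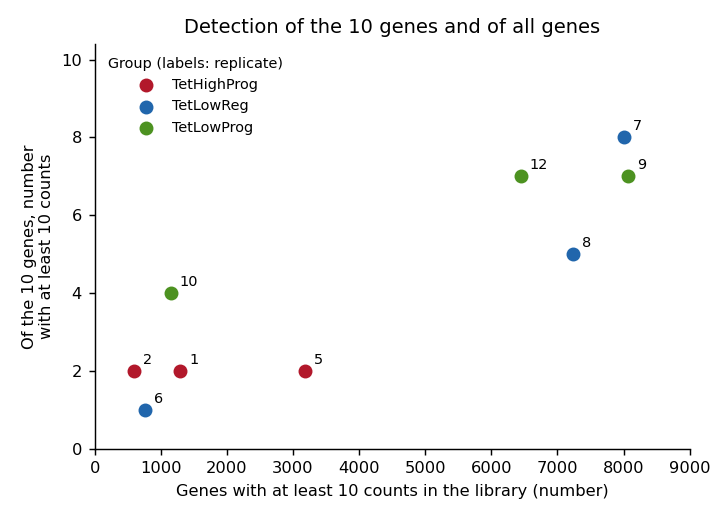
Each point is 1 of the 9 libraries, labelled with its replicate number and coloured by group, with the number of all genes at 10 counts or more on the x axis and the number of the 10 receptor and Il12b genes at 10 counts or more on the y axis. The TetHighProg libraries sit at 2 of the 10, and the 4 libraries with the most genes hold 5 to 8.

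Il2rg (ENSMUSG00000031304; chromosome X, 100307984 to 100311861, minus strand) was the most abundant of the 10 in every library. It gave 7527, 3902 and 8501 CPM in TetHighProg 1, 2 and 5. In TetLowReg 6, 7 and 8 it gave 6588, 1476 and 2549 CPM, and in TetLowProg 9, 10 and 12 it gave 595, 6641 and 4856 CPM. The groups overlapped, with the lowest level in TetLowProg 9 and the highest in TetHighProg 5. Of the 5 libraries with the highest levels, 3 are among the 4 with few genes. Per length of exons it ranked between 6 and 109 among the genes of each library, counted from the highest. The group means were 6643 ± 2424 CPM for TetHighProg (SD, n = 3), 3537 ± 2696 CPM for TetLowReg and 4031 ± 3106 CPM for TetLowProg. By edgeR's quasi-likelihood test with Benjamini-Hochberg adjustment over all genes, the log2 fold change was -0.95 in TetLowReg against TetHighProg (standard error, SE, 1.87, adjusted p = 0.847) and -0.90 in TetLowProg against TetHighProg (SE 1.87, adjusted p = 0.860). It was the only one of the 6 genes tested with an edgeR fold change below 0 in these comparisons, and with DESeq2's poscounts size factors Ifngr1 was below 0 too. Between the low avidity groups the value was 0.05 (SE 1.85), and its sign turned under several settings. The median over all 5813 genes tested was itself 3.52, 4.27 and 0.35 in these 3 comparisons, higher in the low avidity group.

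**Figure D2:**
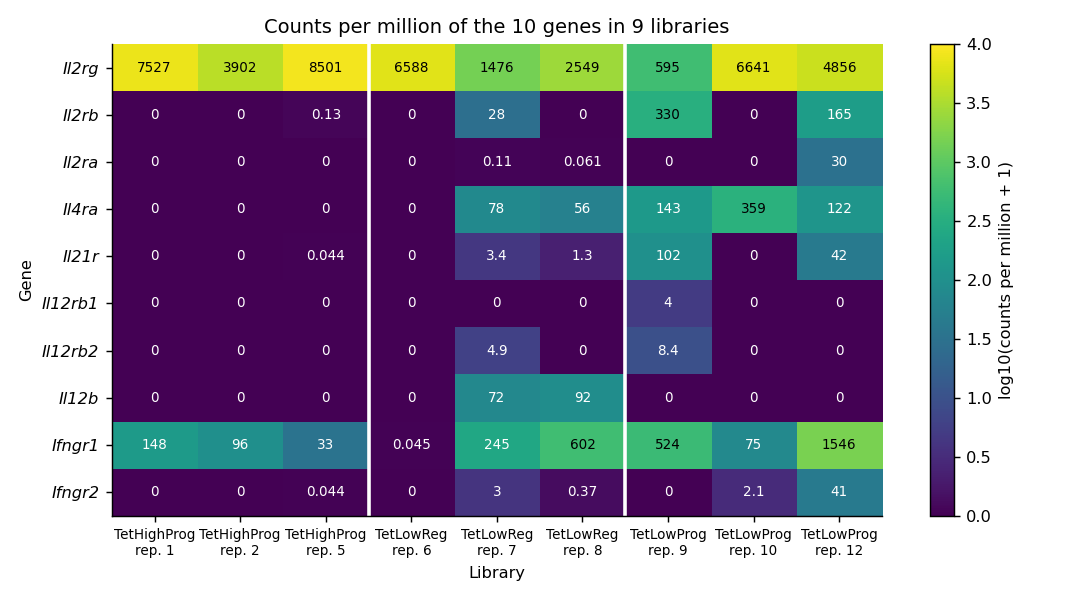
Rows are the 10 genes, columns the 9 libraries, white lines divide the 3 groups, the number in each cell is the level in CPM, and colour is log10(CPM + 1). Il2rg fills its whole row, Ifngr1 is at 32.6 CPM or more in 8 libraries, and the other 8 genes reach at most 0.132 CPM in TetHighProg.

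The private chains for IL-2 were found only in some low avidity libraries. Il2rb (ENSMUSG00000068227; chromosome 15, 78363456 to 78395566, minus strand), the signaling beta chain that IL-2 and IL-15 use, had 28.4 CPM in TetLowReg 7 and 330 and 165 CPM in TetLowProg 9 and 12. It had 3 counts in TetHighProg 5 and none in the remaining 5 libraries, so each group held at least 1 library at 0 and the groups overlapped. The edgeR log2 fold change was 10.14 in TetLowProg against TetHighProg (SE 5.90, adjusted p = 0.223) and 7.25 in TetLowReg against TetHighProg (SE 5.04, adjusted p = 0.336). Without TetLowReg 7 the latter turned to -0.61. DESeq2 with default size factors and limma-voom called Il2rb in TetLowProg against TetHighProg, as did DESeq2 with poscounts factors. These settings called 35.4%, 49.9% and 18.4% of all genes in that comparison. Il2ra (ENSMUSG00000026770; chromosome 2, 11647618 to 11698004, plus strand), the alpha chain that raises the affinity for IL-2 and is displayed by activated and regulatory T cells, reached 945 counts or 30.0 CPM in TetLowProg 12. It had 4 counts in TetLowReg 7, 1 in TetLowReg 8 and 0 in the other 6 libraries. In TetLowProg 12 Foxp3, the master factor of regulatory T cells, had 0 counts and Cd4 had 2, while the other 4 genes listed for CD4 and regulatory T cells were found there: Ikzf2 (944 counts), Ctla4 (716), Tnfrsf4 (5839) and Tnfrsf18 (3384).

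Il4ra was the gene of the 10 whose levels followed the groups most closely. Il4ra (ENSMUSG00000030748; chromosome 7, 125151079 to 125182844, plus strand) encodes the chain that binds IL-4 and, with another partner, IL-13. It had 0 counts in TetHighProg 1, 2 and 5 and in TetLowReg 6. TetLowReg 7 and 8 gave 78.0 and 55.6 CPM (2843 and 912 counts), and TetLowProg 9, 10 and 12 gave 143, 359 and 122 CPM (5193, 9037 and 3850 counts). Every TetLowProg library therefore lay above every library of the other 2 groups, including TetLowProg 10 with its 1148 genes, while TetLowReg overlapped TetHighProg at 0. Means were 208 ± 131 CPM (SD, n = 3) in TetLowProg and 44.5 ± 40.2 in TetLowReg. Both separations had an exact two-sided permutation p of 0.1, the smallest possible. TetLowProg lay wholly above TetHighProg in 3.2% of the 13373 genes with 10 counts in some library, and wholly above TetLowReg in 1.34%. Il4ra was 1 of the 10 in each case. The other separations held for 0 of the 10: TetLowReg above TetHighProg (2.65% of genes), both low avidity groups above TetHighProg (0.411%), and below it or each other in the 4 comparisons (0.449%, 0.254%, 0.606% and 0.0972%). A further pattern, reads in at least 5 of the 6 low avidity libraries and none in TetHighProg, held for 2.03% of genes and for Il4ra among the 10 (exact p = 0.107 for the mean CPM of 6 against 3 libraries, where the smallest possible is 0.0119). This pattern describes the counts of Il4ra given above, so that it held for Il4ra is no test.

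The log2 fold changes fitted by edgeR depend on its prior count of 2 when a group is at 0. For Il4ra they were 9.87 in TetLowReg (SE 4.70, adjusted p = 0.233) and 11.34 in TetLowProg (SE 5.12, adjusted p = 0.193) against TetHighProg. The value for both low avidity groups against TetHighProg was 10.61 (SE 4.87, adjusted p = 0.181), and for TetLowProg against TetLowReg 1.47 (SE 4.24, adjusted p = 1.0). Il4ra passed an unadjusted p of 0.05 in the 3 comparisons with TetHighProg (0.0356, 0.0267 and 0.0294). It no longer did so in any of them when TetHighProg 1, 2 or 5 was left out, where p lay between 0.0507 and 0.0769. In TetLowReg against TetHighProg it also missed 0.05 without TetLowReg 7 or 8 or TetLowProg 9 or 12 (p between 0.0509 and 0.0662). Over all settings the adjusted p ran from 0.000423 to 0.477 in TetLowReg against TetHighProg and from 2.39e-05 to 0.915 in TetLowProg against TetHighProg, with the low ends from tools other than edgeR.

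Il21r (ENSMUSG00000030745; chromosome 7, 125202601 to 125232756, plus strand), which pairs with the gamma chain to bind IL-21, starts 19.8 kb beyond the end of Il4ra on the same strand. It had 102 and 41.9 CPM in TetLowProg 9 and 12, 3.40 and 1.28 CPM in TetLowReg 7 and 8, 1 count in TetHighProg 5 and none elsewhere. Il21r was thus found in 4 of the 5 libraries that held Il4ra, and TetLowProg 10, the library with the most Il4ra, had no read of it. In TetLowProg 9 and 12 its level was at least 10 times that of any other library. The edgeR log2 fold change was 8.71 in TetLowProg against TetHighProg (SE 4.90, adjusted p = 0.212), 4.92 in TetLowReg against TetHighProg (SE 3.62, adjusted p = 0.370) and 3.79 in TetLowProg against TetLowReg (SE 4.55, adjusted p = 1.0).

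**Figure D3:**
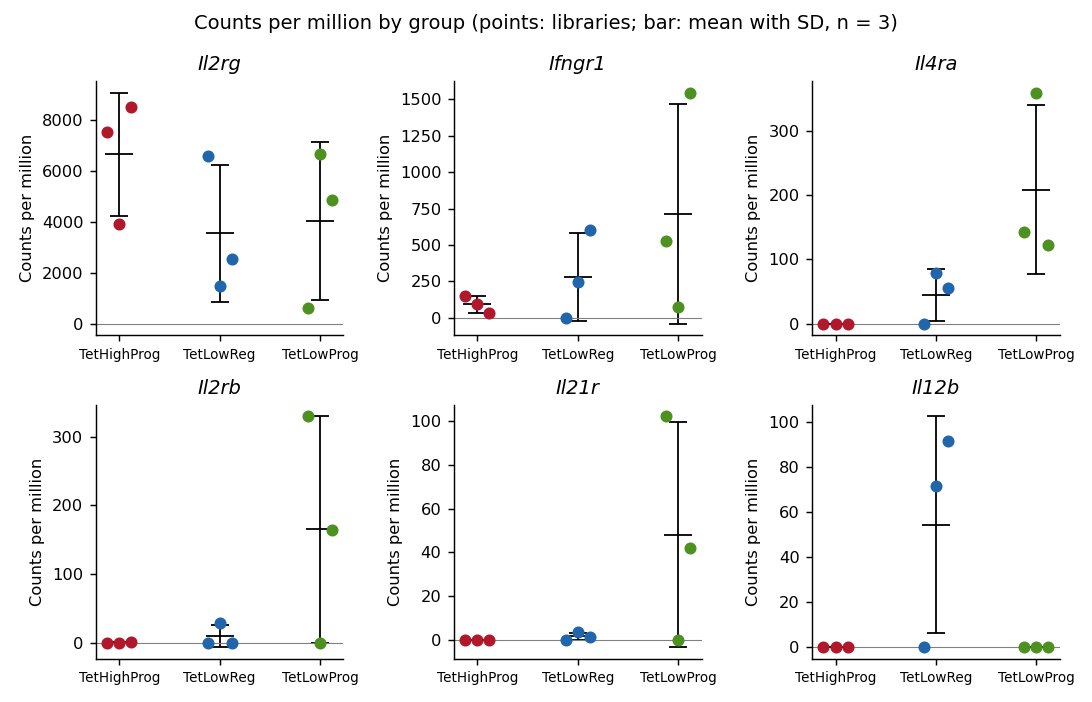
Each panel is 1 gene with the level in CPM on a linear y axis, points are the 3 libraries of a group, and the black bar is the group mean with its SD (n = 3). TetLowProg lies wholly above both other groups for Il4ra alone, and Il12b has points above 0 only in TetLowReg.

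The chains of the IL-12 receptor were scarce. Il12rb1 (ENSMUSG00000000791; chromosome 8, 71261093 to 71276183, plus strand), the chain shared with the IL-23 receptor, had 144 counts or 3.96 CPM in TetLowProg 9 and 0 in the other 8 libraries. Il12rb2 (ENSMUSG00000018341; chromosome 6, 67268302 to 67353172, minus strand), the signaling chain particular to IL-12, had 178 counts or 4.89 CPM in TetLowReg 7 and 305 counts or 8.39 CPM in TetLowProg 9, and 0 elsewhere. Its annotated span overlaps Serbp1 on the opposite strand, and the libraries do not record strand. Its counts assigned with strand added up to the count assigned without, so no reads were set aside for that overlap. Neither gene reached edgeR's minimum counts, so neither was tested with all 9 libraries and the filter. With no filter the unadjusted p of Il12rb2 was 0.133 in TetLowReg and 0.151 in TetLowProg against TetHighProg, and that of Il12rb1 was 0.123 in TetLowProg against TetHighProg (adjusted p from edgeR between 0.386 and 0.466). Without TetLowReg 6, a library with no read of it, Il12rb2 passed the filter. Its unadjusted p from edgeR was then 0.0331 in TetLowReg, 0.0486 in TetLowProg and 0.0368 in both groups against TetHighProg. The adjusted p lay between 0.155 and 0.174. In that setting 28.4%, 31.6% and 24.8% of all genes passed an unadjusted p of 0.05 in these comparisons. With any other single library left out Il12rb2 did not pass it. TetLowProg 9 was the single library with both chains. It also held the kinases of these chains, Tyk2 (6542 counts) and Jak2 (932 counts), and Stat4 (8073 counts), which IL-12 activates.

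Il12b (ENSMUSG00000004296; chromosome 11, 44290808 to 44305505, plus strand) encodes p40, the subunit shared by IL-12 and IL-23. It gave 71.8 and 91.7 CPM (2615 and 1504 counts) in TetLowReg 7 and 8 and 0 in TetLowReg 6 and all 6 libraries of the other groups. TetLowReg therefore overlapped both other groups at 0 (exact p = 0.4 against each). Il12a, which encodes the p35 partner in IL-12, had 186 counts in TetLowProg 12 and fewer than 10 in every other library, and Il23a, which encodes the p19 partner in IL-23, had fewer than 10 in all 9. No library thus held Il12b together with a partner subunit, and no library held Il12b together with both chains of the IL-12 receptor. Il12b fell below the filter of the 3-group fit. Fitted with no filter, it had an unadjusted p of 0.0409 in TetLowReg against TetHighProg and 0.0345 in TetLowProg against TetLowReg, with adjusted p of 0.386 and 0.463 from edgeR.

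The libraries with Il12b also held transcripts that mark antigen-presenting cells. The 6 MHC class II genes summed to 47642 and 39282 CPM in TetLowReg 7 and 8, and all 6 had at least 10 counts in both. In 4 of the other libraries the sum ran from 0.119 to 113 CPM, and in TetHighProg 5 and 2 it was 569 and 1482 CPM, whereas TetLowProg 12, with no Il12b, had 60634 CPM. Of 8 B cell genes, 7 had at least 10 counts in TetLowReg 7 and 8 and in TetLowProg 12, with sums of 1349, 1674 and 1629 CPM. These included Cd79a, Cd79b and Ms4a1, which make or mark the B cell surface. Of 17 genes for dendritic cells and macrophages, 7 had at least 10 counts in TetLowReg 7 and in TetLowReg 8, and 0 to 3 did in the other 7 libraries. The sum of these genes was 9479 and 1658 CPM in TetLowReg 7 and 8, against 3406 CPM in TetHighProg 1, 457 in TetHighProg 5, 1777, 1528 and 2063 in TetLowProg 9, 10 and 12 and at most 0.272 in the remaining 2. TetLowReg 8 thus lay below 3 libraries without Il12b by this sum. TetLowReg 7 held Zbtb46, Cd209a, Adgre1, Cd68, Lyz2, Cd14 and Ccr7, with 299515 counts for the lysozyme gene Lyz2. TetLowReg 8 held Itgax, Flt3, Zbtb46, Clec9a, Lyz2, Ccr7 and Fscn1. The defining genes Xcr1, Batf3, Csf1r, Fcgr1 and C1qa stayed below 10 counts in both. Foxp3 had 123 and 585 counts and Cd4 2020 and 42 counts in TetLowReg 7 and 8, and both had fewer than 10 in the other 7 libraries. Of the whole list of 6 CD4 and regulatory T cell genes, 6 and 5 were found in TetLowReg 7 and 8, 3 in TetHighProg 5, 2 in TetLowProg 9, 4 in TetLowProg 12 and 0 in the other 4 libraries, with sums of 352, 597, 242, 315 and 346 CPM in the 5 that held any. The part of other cells in the Il12b reads was not tested.

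**Figure D4:**
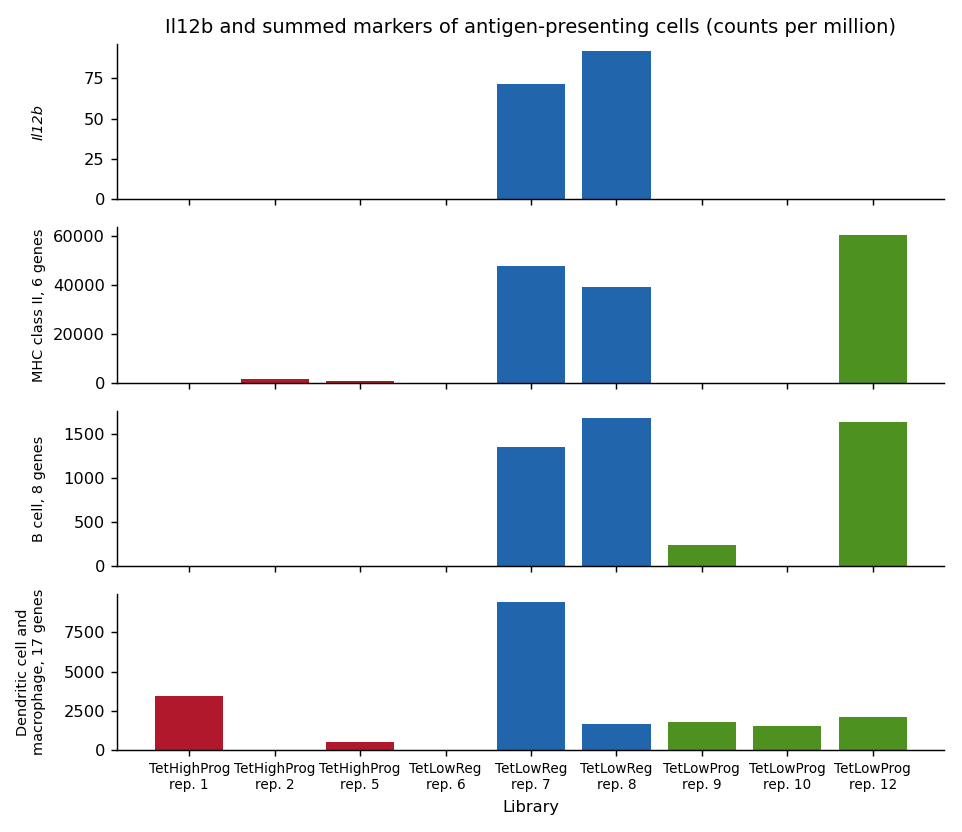
Bars give, for each of the 9 libraries, the level of Il12b and the summed levels of 6 MHC class II genes, 8 B cell genes and 17 dendritic cell and macrophage genes, all in CPM on linear axes that start at 0 and differ between panels, with colours for the groups. Il12b appears in TetLowReg 7 and 8, while the class II and B cell sums are high in these and in TetLowProg 12, and the dendritic cell and macrophage sum of TetLowReg 8 lies below those of TetHighProg 1 and TetLowProg 9 and 12.

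The same marker levels can be set beside the receptors. Il4ra had 143 and 359 CPM in TetLowProg 9 and 10, where the class II sum was 113 and 0.119 CPM and the B cell sum 242 CPM (Ighm alone) and 0. Their dendritic cell and macrophage sums were 1777 and 1528 CPM, in which Ccr7, a gene that T cells also use, had 63999 and 38413 counts. In the other 3 libraries with Il4ra, TetLowReg 7 and 8 and TetLowProg 12, the class II sums were 47642, 39282 and 60634 CPM and the B cell sums 1349, 1674 and 1629 CPM. Il2ra, Ifngr1 and Ifngr2 had their highest levels in TetLowProg 12, the library with the highest class II sum. Il2rb and Il21r had their highest levels in TetLowProg 9. Il2rg and Ifngr1, the 2 of the 10 with at least 10 counts in TetHighProg, were present in TetHighProg 1 at a class II sum of 0.509 CPM, a B cell sum of 0.0299 CPM and a dendritic cell and macrophage sum of 3406 CPM (Cd209a and Lyz2). Of 4 NK cell genes only Klre1 was found, with 30 counts in TetLowReg 8 and 1646 in TetLowProg 9. The 9 tumor and stroma genes summed to at most 387 CPM in a library. The part of these other transcripts in the receptor levels was not tested.

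The ligand-binding chain for IFNγ was widespread and its partner was not. Ifngr1 (ENSMUSG00000020009; chromosome 10, 19467697 to 19485977, plus strand) gave 148, 95.8 and 32.6 CPM in TetHighProg 1, 2 and 5. It gave 0.0454 (1 count), 245 and 602 CPM in TetLowReg 6, 7 and 8, and 524, 74.5 and 1546 CPM in TetLowProg 9, 10 and 12. The 4 low avidity libraries with many genes all lay above every TetHighProg library, and the 2 with few genes lay below TetHighProg 2. The edgeR log2 fold change was 1.72 in TetLowReg (SE 3.25, adjusted p = 0.838) and 2.47 in TetLowProg (SE 3.34, adjusted p = 0.722) against TetHighProg, both under the median of all genes tested. With the poscounts size factors of DESeq2 the direction turned, to -2.52 and -1.62. Ifngr2 (ENSMUSG00000022965; chromosome 16, 91343906 to 91362512, plus strand), the signaling chain, had 41.4 CPM in TetLowProg 12, 2.11 CPM in TetLowProg 10 and 2.96 CPM in TetLowReg 7. Elsewhere it had 6 counts in TetLowReg 8, 1 in TetHighProg 5 and none in the other 4 libraries, TetLowProg 9 among them. Its edgeR log2 fold change was 4.52 in TetLowReg (SE 3.25, adjusted p = 0.354) and 7.39 in TetLowProg (SE 4.22, adjusted p = 0.214) against TetHighProg.

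None of the receptors for IL-2, IL-4, IL-12, IL-21 and IFNγ had all its signaling chains at 10 counts in a TetHighProg library. TetHighProg 1, 2 and 5 held only 1298, 599 and 3181 genes in all, and the part of this in the missing chains was not tested. Both chains of the IL-4 receptor (Il4ra and Il2rg) were found in 5 libraries, 2 of TetLowReg and 3 of TetLowProg. Both chains of the IL-21 receptor were found in 4 libraries, 2 in each low avidity group. The beta and gamma chains for IL-2 and IL-15 were found together in TetLowReg 7 and TetLowProg 9 and 12, and the alpha chain joined them only in TetLowProg 12. Both IFNγ receptor chains were found in TetLowReg 7 and TetLowProg 10 and 12. TetLowReg 6 held only Il2rg and completed none of these receptors. Levels of a transcript below 10 counts cannot show that the chain was absent from the cell surface.

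Across all 10 genes edgeR called none in any comparison when a call needs both an adjusted p below 0.05 and a log2 fold change beyond 2 in either direction. It tested 6 of the 10, and the other 4 (Il2ra, Il12rb1, Il12rb2 and Il12b) had too few counts for its filter. The share of all 5813 genes called was 0% in TetLowReg against TetHighProg, 0% in TetLowProg against TetHighProg, 0% in TetLowProg against TetLowReg and 0.0172% with both low avidity groups against TetHighProg. At an unadjusted p of 0.05, 1, 1, 0 and 1 of the 6 passed, each time Il4ra, where the share over all genes was 19.5%, 25.4%, 0.929% and 25.6%. In TetLowProg against TetHighProg, DESeq2 with default size factors called 4 of the 10 (Il2rb, Il4ra, Il21r and Ifngr2; 35.4% of all genes), with poscounts factors it called Il2rb and Il21r (18.4%), and limma-voom called Il2rb, Il4ra and Il21r (49.9%). In TetLowReg against TetHighProg the first and the last of these called Il4ra alone (28.8% and 41.5%) and poscounts factors called none (17.6%). With both low avidity groups against TetHighProg default DESeq2 called Il2rb, Il4ra, Il21r and Ifngr2 (4, 37.3%), poscounts factors Il2rb alone (23.6%) and limma-voom those same 4 genes (68.2%). None of these tools called any of the 10 between TetLowProg and TetLowReg (0.464%, 0.275% and 0%). Of 40 exact permutation tests on CPM, 10 genes in 4 comparisons, 0 had a p under 0.05 and the 2 without overlap were the Il4ra comparisons above.

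**Figure D5:**
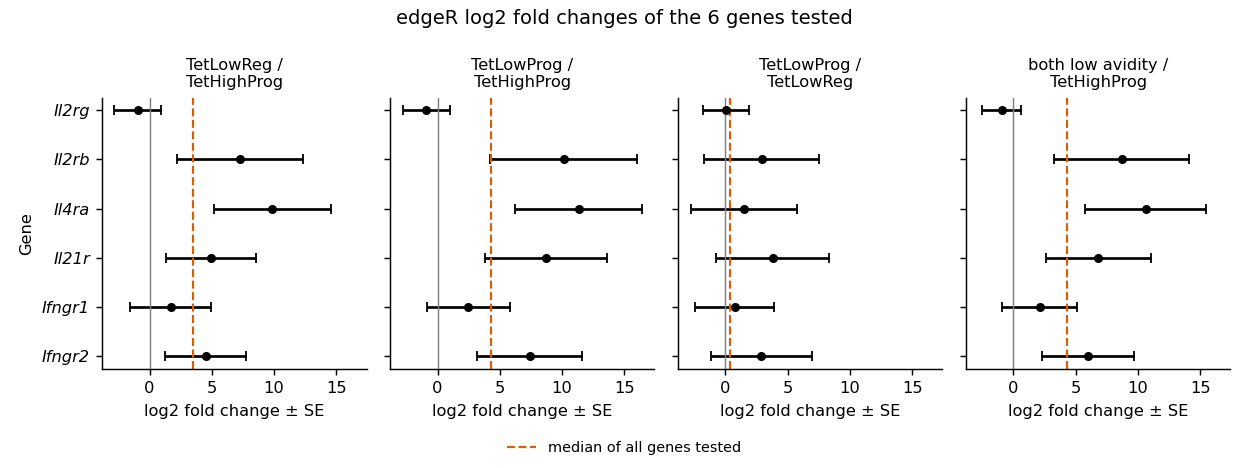
Points are edgeR log2 fold changes of the 6 genes tested, bars their SE, and each panel is 1 comparison of 3 libraries against 3, or of 6 against 3 in the last, with the dashed line at the median of all 5813 genes. Il4ra lies farthest from 0 in the 3 comparisons with TetHighProg, and in TetLowProg against TetLowReg all 6 SE bars reach 0.

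The kinases and STAT factors that these receptors use were found unevenly too. Jak1, which the IL-2, IL-4, IL-21 and IFNγ receptors share, had at least 10 counts in 7 libraries. Jak3, the kinase of the common gamma chain, was found in TetLowProg 9 alone (8264 counts), although Il2rg was abundant in all 9. Stat6, which IL-4 activates, was found in TetLowReg 7 and TetLowProg 9 and 12, with 135, 6906 and 1409 counts. Stat5a and Stat5b, which IL-2 activates, were found in 6 and 5 libraries. Of the 11 kinase and STAT genes edgeR tested 10. At an unadjusted p of 0.05, 3 were higher in TetLowReg than in TetHighProg (Stat3, Stat4 and Jak2), the same 3 were higher in TetLowProg and 0 passed between the low avidity groups, where 19.5%, 25.4% and 0.929% of all genes passed. EdgeR called none of them. Against TetHighProg default DESeq2 called 3 in TetLowReg and 4 in TetLowProg (28.8% and 35.4% of all genes), poscounts factors 3 and 4 (17.6% and 18.4%), and limma-voom 3 and 7 (41.5% and 49.9%). Of 12 negative regulators (the SOCS family and phosphatases) 7 were tested and 1 passed in TetLowReg against TetHighProg (Socs4), 1 in TetLowProg against TetHighProg (Socs3) and both with the low avidity groups together, by edgeR's unadjusted p, where 19.5%, 25.4% and 25.6% of all genes passed. In these 3 comparisons edgeR called none of the 7, default DESeq2 called 2, 3 and 2 (28.8%, 35.4% and 37.3% of all genes), poscounts factors 0, 0 and 2 (17.6%, 18.4% and 23.6%) and limma-voom 3, 6 and 7 (41.5%, 49.9% and 68.2%).

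Ligands and targets of the receptors gave few values. Of 15 cytokine genes none passed the filter. Ifng had 2349 counts in TetLowReg 7 and 11244 in TetLowProg 9, with at most 1 count elsewhere. Il2 had 34 counts in TetLowProg 9, Il4 had 145 in TetLowReg 7, and Il21 had fewer than 10 in all libraries. Of 13 IFNγ-induced genes in the tables, such as Irf1 and Gbp4, 10 were tested and 0 passed an unadjusted p of 0.05 with edgeR in any comparison (19.5%, 25.4%, 0.929% and 25.6% of all genes), with medians of 0.13 in TetLowReg and 1.55 in TetLowProg against TetHighProg on the log2 scale, where the medians of all genes were 3.52 and 4.27. The tools differed on this list. In the same 2 comparisons limma-voom called 4 and 5, with medians of 5.53 and 7.65, default DESeq2 called 1 and 1, and poscounts factors 0 and 1, with medians of 0.31 and -0.76. The shares of all genes called were 41.5% and 49.9%, 28.8% and 35.4%, and 17.6% and 18.4%. Of 10 genes induced by STAT5, 6 were tested and Gzmb, which encodes granzyme B, was the 1 that passed edgeR's unadjusted p of 0.05, in TetLowReg against TetHighProg and with both low avidity groups together (log2 fold change 10.17, SE 4.95, adjusted p = 0.233 from edgeR in the former). The shares of all genes past that p were 19.5% and 25.6%. Of these 6, limma-voom called 4 in TetLowReg, 3 in TetLowProg and 4 in both against TetHighProg (41.5%, 49.9% and 68.2% of all genes), default DESeq2 1 in each (28.8%, 35.4% and 37.3%) and poscounts factors 1, 1 and 2 (17.6%, 18.4% and 23.6%).

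Of 33 other cytokine receptor genes, edgeR tested 12, and at its unadjusted p of 0.05 1 was higher in TetLowReg than in TetHighProg (Il18rap; 19.5% of all genes passed) and 3 in TetLowProg (Il18rap, Il17ra and Il10rb; 25.4%). With both groups together these 3 were higher and Il18r1 was lower (25.6%). EdgeR called none of them, while in that comparison default DESeq2 called 4 of the 12, poscounts factors 2 and limma-voom 7, all higher. The shares of all genes were 37.3%, 23.6% and 68.2%. In TetLowReg against TetHighProg default DESeq2 called 3 higher and 1 lower, poscounts factors 1 higher and 1 lower and limma-voom 3 higher (28.8%, 17.6% and 41.5%). In TetLowProg against TetHighProg they called 4, 2 and 6, all higher (35.4%, 18.4% and 49.9%). Il7r, the alpha chain for IL-7 that marks naive and memory T cells, was present in TetHighProg 1 and 5 with 24042 and 22459 counts and absent from TetHighProg 2. It had 8812 and 17105 counts in TetLowReg 7 and 8, 17206 and 5246 in TetLowProg 9 and 12, 7 in TetLowProg 10 and 0 in TetLowReg 6. Il7r was thus found with the gamma chain in TetHighProg 1 and 5, unlike the private chains of the 10. Il15ra, the alpha chain for IL-15, had 27 counts in TetLowReg 8 and 1928 in TetLowProg 12.

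The marker lists were tested in the same fit. At edgeR's unadjusted p of 0.05 the shares of all genes were 19.5% in TetLowReg, 25.4% in TetLowProg and 25.6% in both groups against TetHighProg, and 0.929% between the low avidity groups. All 6 MHC class II genes were tested, and 5 were higher in TetLowReg and 6 in TetLowProg than in TetHighProg at that p. Of the 8 B cell genes 6 were tested, and 5 were higher in TetLowReg (Cd79a, Cd79b, Ighm, Bank1 and Pax5) and 4 in TetLowProg (these without Pax5). Of the 13 T cell genes, all tested, 1 passed in each comparison with TetHighProg (Cd2, higher). Of 6 CD4 and regulatory T cell genes 4 were tested, and Ctla4 was higher in TetLowProg and in both groups together than in TetHighProg. Of the 17 dendritic cell and macrophage genes 3 were tested. Ccr7 was higher in TetLowProg than in TetHighProg, and Zbtb46 was lower in TetLowProg than in either other group and lower in both groups together than in TetHighProg. Of the 9 tumor and stroma genes 2 were tested and neither passed with edgeR, and the NK cell genes had too few counts for the filter.

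EdgeR called none of these marker genes, whereas the other tools did. In TetLowReg against TetHighProg default DESeq2 called 5 class II genes, 5 B cell genes, 3 T cell genes (2 higher and 1 lower), 1 CD4 and regulatory T cell gene, 0 dendritic cell and macrophage genes and 1 tumor and stroma gene (lower), where it called 28.8% of all genes. With poscounts factors the counts were 5, 4, 1 (lower), 0, 0 and 1 (lower), at 17.6% of all genes. With limma-voom they were 5, 6, 3, 3, 2 and 0, at 41.5% of all genes. In TetLowProg against TetHighProg they were 5, 4, 2, 1, 1 and 0 with default DESeq2 (35.4%), 5, 4, 0, 1, 2 (1 of them lower) and 1 (lower) with poscounts factors (18.4%) and 4, 3, 5, 2, 1 and 0 with limma-voom (49.9%).

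Likeness to each gene was measured as Pearson's r of log2(CPM + 1) over the 9 libraries, against 8352 genes, and is given as a description. Zeros shared between libraries weigh heavily in it. Il4ra was most like Stat3 (r = 0.997), which had 11266, 1921, 17511, 24144 and 18256 counts in the 5 libraries with Il4ra and 0 in the other 4, then Rbm27 (0.996) and Arhgef3 (0.994). Il21r was most like Nfkb2 (0.999), Lta4h (0.995) and Stat6 (0.995), and Il2rb most like Pip4k2a (0.999), Aatf (0.999) and Nedd4l (0.999). Such values were common, with 893 genes above 0.9 for Il21r, 540 for Il2rb, 72 for Il4ra and 112 for Ifngr2. For Ifngr2 the first were Leng9, Rpusd1 and Rapgef3 (each 0.956). Il12b was most like Clec3a, Endou and Ppl and Il12rb2 most like Glcci1, 1700006J14Rik and Mir1931 (each r = 1.0), since each is found in the same 2 libraries, as 367 and 533 genes above 0.9 show. Il2rg was most like Acot2 (0.983), Kdm6b (0.943) and Zc3hav1 (0.938), with 7 genes above 0.9. Ifngr1 was most like Agap2 (0.892), H2-Q6 (0.847) and H2-Q4 (0.837), with 0 genes above 0.9. Among the 8 of the 10 genes with 10 counts in at least 2 libraries, Il2rb and Il21r were most alike (r = 0.965), and Il2rg ran opposite to Il12rb2 (-0.90), Il21r (-0.71) and Il2rb (-0.69).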

How the data were processed

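The authors deposited 1 table of raw counts per library, made by aligning Smart-seq2 reads to GRCm39 with STAR 2.7.6a. The submitters' notes also name featureCounts, while the tables are laid out as STAR writes them. The annotation release is not given in the sources used here. The unstranded count was used. It holds no multi-mapping or ambiguous reads. The table rows that name no gene (unmapped, multi-mapping, ambiguous or outside genes) held 40.3% to 59.9% of the reads and were left out. Of 32976 genes, 28645 were matched to GENCODE M39 on GRCm39. RNA had been amplified for 22 PCR cycles without molecular identifiers, so limits from a count of 0 (3 counts of a total) cover counting error only. No column of another series was present (0).

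CPM are counts scaled to the library total. Levels were compared between genes only after division by exon length. Genes were tested with edgeR 4.0.16 in R 4.3.3 (quasi-likelihood test, TMM factors, default filter on low counts, 3 groups in one model, prior count 2), and a call needed a two-sided p below 0.05 after Benjamini-Hochberg adjustment over all genes tested and a log2 fold change beyond 2 in either direction. The SE is the one implied by the test statistic. DESeq2 1.42.0 and limma 3.58.1 (voom with sample quality weights) were alternatives, with other filters and scalings and each library left out in turn. For single values, two-sided exact permutation tests were run in Python by listing every split of the libraries, with a check against scipy on Ifngr1. The labels do not say that libraries came from separate animals, so p-values measure the spread between libraries. Scripts were tested on simulated data. A gene counted as found at 10 counts. Promoter windows were read from GRCm39.

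The 10 genes and all lists were chosen with earlier results of these data known. The genes given by name were the 10, the ligands and receptors Il12a, Il23a, Il15ra, Il7r, Il2, Il4, Il21 and Ifng, for each of the 10 with 10 counts in at least 2 libraries the 3 genes of most similar pattern, and genes of other cell types with 10 counts in the libraries that held Il12b. Other list genes, such as the kinases, STAT factors and cell type markers named above and those named where few of a list passed, were chosen after their values were seen. Some genes of the lists are not reported here.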

Additional observations from a re-analysis of the deposited data

How the results depend on the processing

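No paired analysis was possible because the groups share no replicate numbers. The number of the 10 genes called moved with the tool. DESeq2 with default size factors called 1 in TetLowReg, 4 in TetLowProg and 4 in both low avidity groups against TetHighProg (28.8%, 35.4% and 37.3% of all genes). DESeq2 with poscounts factors called 0, 2 and 1 (17.6%, 18.4% and 23.6%), and limma-voom 1, 3 and 4 (41.5%, 49.9% and 68.2%). At an unadjusted p of 0.05 the counts in these 3 comparisons were 3, 4 and 4 with default DESeq2. They were 2, 4 and 4 with limma-voom and 1 (Il2rb, not Il4ra), 3 and 3 with poscounts factors. With edgeR 1 passed in each. The shares of all genes past that p were 33.6%, 37.7% and 39.5% with default DESeq2, 55.6%, 59.1% and 72.0% with limma-voom, and 26.2%, 29.1% and 31.9% with poscounts factors. Without a filter 2 passed in TetLowReg (4.38% of all genes), and without the 4 libraries with few genes 2 in TetLowReg (7.82%) and 3 in TetLowProg (8.05%). That last setting leaves TetHighProg with 1 library, which is assumed to vary like the other groups. With the 2 groups of a comparison fitted alone 0 passed in TetLowReg (2.69%), where the filter kept 2 of the 10 and not Il4ra, and Il4ra passed in TetLowProg (4.71%). Between TetLowProg and TetLowReg 1 passed with no filter (0.942%), with limma-voom (6.09%) and without those 4 libraries (3.74%). With single libraries left out the counts ran from 0 to 3 in TetLowReg, 0 to 2 in TetLowProg, 0 to 1 between the low avidity groups and 0 to 2 for both against TetHighProg, where the shares of all genes ran from 1.6% to 28.4%, 1.95% to 31.6%, 0.144% to 6.47% and 2.3% to 25.5%. The difference in genes found between TetLowProg and TetLowReg was -0.50 to 3.00 with single libraries left out (negative without TetLowReg 6), and that of both groups against TetHighProg 2.80 to 4.20. The cause of these moves was not tested.

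Of the fold changes of single genes 375 values kept their direction and side of the threshold, 20 became calls and 18 turned in direction. Ifngr1 turned with poscounts factors (-2.52, -1.62 and -2.07 in the 3 comparisons with TetHighProg). With single libraries left out, Ifngr1 ran from -0.49 to 1.66 and Ifngr2 from -0.83 to 5.80 between the low avidity groups (negative without TetLowProg 12), and Il2rb from -0.61 to 7.89 in TetLowReg against TetHighProg (negative without TetLowReg 7). Il2rg between the low avidity groups was -0.03 with no filter, -0.12 and -0.87 with the 2 DESeq2 settings, -0.66 with limma-voom, -0.02 without the 4 libraries with few genes, and -0.67 to 0.63 with single libraries left out.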
